A study of Mus musculus with 2 samples.

Results

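Neutrophils were followed in 2 droplet libraries of leukocytes sorted from B16-F10 melanomas. The members were chosen by their own counts of UMIs (unique molecular identifiers, 1 per captured RNA molecule). Barcodes first had to reach 500 UMIs and 200 genes, with no more than 10% of UMIs from mitochondrial genes. A member then had at least 10 UMIs of S100a8 and S100a9 together, at least 1 UMI of Csf3r or Cxcr2, no UMI of Csf1r, Cd3e, Cd3d or Cd3g, under 3 UMIs of C1qa, C1qb and C1qc together and under 10 of Pmel, Mlana and Dct together. Of 13854 barcodes that passed the depth and mitochondrial limits, 71 were members: 19 of 6354 in the control library and 52 of 7500 in the treated library. B16-F10 is a mouse melanoma line, implanted under the skin of the flank in female wild-type C57BL/6 mice that were 10 weeks old. The treated library came from tumours of mice given an OX40 agonist antibody, and the control library from tumours labelled only as control, with what those mice received not stated. Dissociated tumours were enriched for leukocytes on Ficoll, sorted for CD45 and by the dye DAPI (the protocol gives DAPI-negative cells, the series text DAPI-positive) and profiled by 10x Genomics 3′ chemistry. The labels do not give how many mice each library holds, nor the dose or timing of the antibody. There is 1 library per group, so the treatment cannot be told apart from the library, no difference has a replicate check and no test was possible.

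Neutrophils are short-lived granulocytes of the bone marrow that enter tissue along gradients of CXC chemokines, which they read through the receptor Cxcr2, and that depend on granulocyte colony-stimulating factor, bound by Csf3r. Their granules are filled in sequence while the cells mature, azurophil granules first, then specific granules and then gelatinase granules, so granule transcripts are a record of maturity. Their cytosol is rich in the calcium-binding proteins S100a8 and S100a9, and in tumours they release chemokines and interleukin-1 and can restrain or support T cells. OX40 (Tnfrsf4) is a costimulatory receptor of activated T cells. Of its own transcript the neutrophils held 0 control and 3 treated UMIs, and of its ligand Tnfsf4 none in either library. In T cells Tnfrsf4 stood at 544 CPM (the UMIs of a gene over all UMIs of a cell group, scaled to 1000000) in the control and 658 CPM in the treated library.

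The values that chose the members were spread widely. S100a8 and S100a9 together ran from 14 to 382 UMIs per control member, with a median of 116, and from 10 to 1853 per treated member, with a median of 81. As a share of all UMIs of the cell, the medians were 7.88% and 5.92%. The 5 lowest control members held 14, 22, 23, 23 and 58 UMIs, and the 5 highest barcodes that failed this condition alone held 6, 4, 3, 3 and 2. In the treated library the 5 lowest members held 10, 11, 14, 14 and 15, and the highest just outside held 9, 9, 9, 5 and 5. The S100 threshold thus lay in a gap in the control library and next to barcodes on both sides in the treated library. Csf3r and Cxcr2 together stood at exactly 1 UMI in 3 of 19 control and 30 of 52 treated members, and another 8 control and 39 treated barcodes failed this condition alone. With no other condition, 50 control and 126 treated filtered barcodes reached 10 S100 UMIs, against 19 and 52 members. Few T cells or Ly6c2-positive monocytes held S100 UMIs. A UMI of S100a8 or S100a9 was found in 26 of 1905 control T cells (1.36%, exact 95% interval 0.894 to 1.99) and 50 of 1802 treated T cells (2.77%, 2.07 to 3.64). Their median depths were 10542 and 7557 UMIs, and T cells were defined with fewer than 10 such UMIs. Among Ly6c2-positive monocytes 21 of 378 control (5.56%) and 18 of 411 treated cells (4.38%) held a UMI, and 3 treated cells reached 10.

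Markers of other cell types were counted without the genes that the rule itself limits, since those are low by the choice of members. The other 9 of 12 markers of T and NK cells summed to 8 UMIs in each library, with 5 control and 4 treated markers at 0. All 6 markers of B and plasma cells and all 7 of mast cells and basophils were at 0 in both libraries. Of 8 eosinophil markers, Siglecf had 1 treated UMI and Ear2 5, and Ccr3, Epx and Prg2 were at 0. The other 10 of 14 markers of monocytes and macrophages summed to 28 control and 71 treated UMIs, 738 and 889 CPM against 4952 and 5253 CPM in monocytes, with 3 and 2 at 0. With the rule's genes that sum was 30 UMIs in the control members, of which the deepest held 18. The 9 dendritic cell markers summed to 77 and 80 UMIs, of which Cst3, also present in other myeloid cells, gave 71 and 79. The other 3 of 6 melanoma markers summed to 2 and 7 UMIs. The surface antigen Ly6g, commonly used to sort mouse neutrophils and named here outside the gene rule, was itself scarce, with 4 UMIs in 2 control barcodes and 8 in 3 treated barcodes.

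The members were shallow, and single deep barcodes carried much of their sum. The control members held 37919 UMIs in all and the treated members 79851, with medians of 1597 and 1332.5 UMIs and of 612 and 494.5 genes per barcode, against 10048 and 8378 UMIs in all other filtered barcodes. A single UMI was therefore worth 26.4 CPM in the control and 12.5 CPM in the treated library. The deepest control member held 9167 UMIs, 24.2% of the control sum, with 23 UMIs of the S100 genes, or 0.251% of its own UMIs, and 1 receptor UMI. It carried all 71 control UMIs of the chemokine Cxcl9, 25 of 31 of Cxcl10, 40 of 52 of the MHC class II chaperone Cd74, 78 of 98 of the intermediate filament gene Vim, and 6 of 6 of the monocyte chemokine receptor Ccr2. A treated member of 4721 UMIs held 8 UMIs of Ccr2, 5 of the monocyte gene Ly6c2 and 36 of the S100 genes, and the other 18 control and 51 treated members had no Ccr2 UMI. The deepest treated member held 5087 UMIs, 6.37% of the treated sum, with 1853 UMIs of the S100 genes, 277 of 278 treated UMIs of Camp and 227 of 228 of Ngp. These genes were singled out after their values were seen. Many results are therefore also given without the deepest member of each library. No barcode sequence of a member was shared with the other library, among 18 shared by all deposited barcodes.

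**Figure D1:**
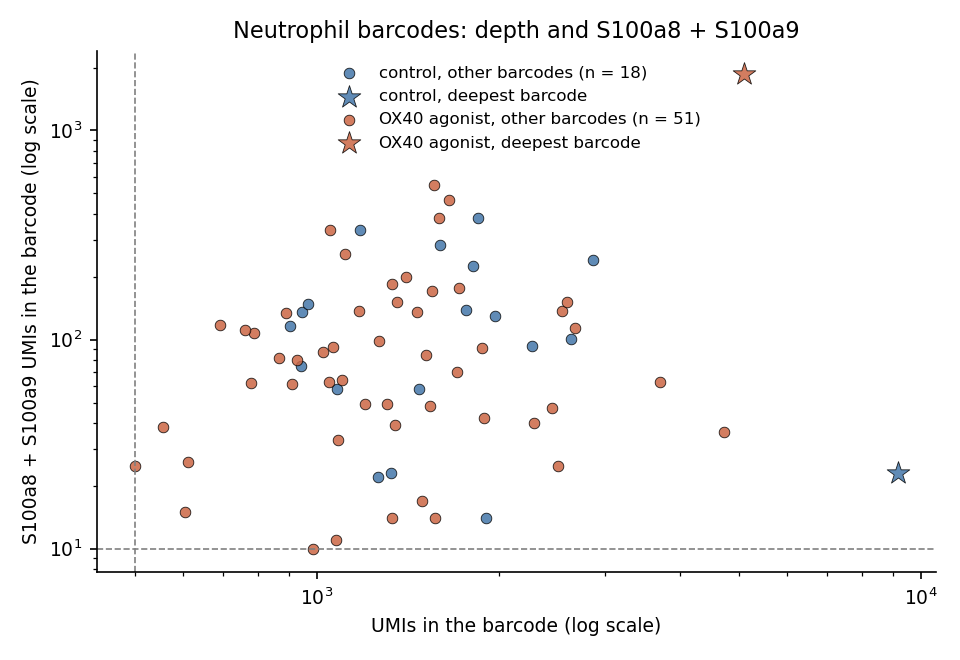
Each point is 1 neutrophil barcode, with its UMIs on the x axis and its S100a8 and S100a9 UMIs on the y axis, both log scaled; dashed lines mark the minimums of 500 and 10 UMIs. The deepest control barcode lies at 9167 UMIs with 23 S100 UMIs, and the deepest treated barcode at 5087 with 1853.

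Neutrophils took a larger share of the treated library. They were 0.299% (exact 95% interval 0.180 to 0.467) of filtered control barcodes and 0.693% (0.518 to 0.908) of filtered treated barcodes, a ratio of 2.32 (1.35 to 4.15). Intervals here and below cover counting error only. Monocytes with Ly6c2 and Csf1r were 5.95% and 5.48%, a ratio of 0.921 (0.799 to 1.06), and T cells 30.0% and 24.0%. Among barcodes under 2000 UMIs, where most members lie, neutrophils were 4.87% and 11.6%. The direction held at higher depth limits, with 15 and 39 members at 1000 UMIs or more (ratio 2.19, 1.18 to 4.28), but at 1500 UMIs or more 10 and 20 members gave a ratio of 1.69 (0.754 to 4.04). The receptor condition decided its size. With at least 2 UMIs of Csf3r and Cxcr2, 16 control and 22 treated barcodes remained and the ratio was 1.16 (0.584 to 2.37), and without this condition 27 and 91 barcodes gave 2.86 (1.84 to 4.57). Ficoll separates cells by density and granulocytes are dense, and the part of this step in the shares was not tested.

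The 4 most abundant transcripts by mean CPM were ferritin heavy chain, the S100 pair and the CXC chemokine Cxcl2. S100a9 stood at 40534 CPM in control and 53299 CPM in treated cells, and S100a8 at 28007 CPM in control and 39924 CPM in treated cells. Without the deepest members their log2 ratios went from 0.39 to -0.29 and from 0.51 to -0.21, so the direction turned. The ferritin heavy chain Fth1, which stores iron, stood at 42222 CPM in control and 59999 CPM in treated cells. Cxcl2, which attracts further neutrophils through Cxcr2, stood at 25871 CPM in control and 43243 CPM in treated cells, with a UMI in 17 of 19 and 51 of 52 cells. The interleukin Il1b stood at 12105 CPM in control and 11734 CPM in treated cells and the transcription factor Cebpb at 8069.8 CPM in control and 7852 CPM in treated cells. On GRCm38, by GENCODE M21, S100a8 is at chr3:90668978-90670035 on the plus strand and S100a9 at chr3:90692632-90695721 on the minus strand. Cxcl2 is at chr5:90903871-90905938 and Cxcl3 at chr5:90786103-90789600, both on the plus strand.

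The upstream sequences of S100a8, S100a9, Cxcl2 and Cxcl3 are shown because the first pair defines the members and the second pair holds their most abundant chemokine and a close relative that differed between the libraries. They are the 250 bases before the gene start listed by RefSeq on GRCm38.p6, written 5′ to 3′ on the gene's strand: chr3:90668821-90669070 plus strand for S100a8, chr3:90695722-90695971 minus strand for S100a9, chr5:90903649-90903898 plus strand for Cxcl2 and chr5:90785851-90786100 plus strand for Cxcl3. Capitals mark letter matches to a C/EBP-type motif (TTGCNNAA) and a κB-type motif (GGNNTTTCC), both strands searched, and to TATAAA on the gene's strand.
S100a8: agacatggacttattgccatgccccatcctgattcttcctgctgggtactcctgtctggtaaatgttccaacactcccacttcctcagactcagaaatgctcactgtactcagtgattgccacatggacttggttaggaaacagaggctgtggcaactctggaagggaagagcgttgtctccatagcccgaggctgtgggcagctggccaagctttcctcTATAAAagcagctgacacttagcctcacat
S100a9: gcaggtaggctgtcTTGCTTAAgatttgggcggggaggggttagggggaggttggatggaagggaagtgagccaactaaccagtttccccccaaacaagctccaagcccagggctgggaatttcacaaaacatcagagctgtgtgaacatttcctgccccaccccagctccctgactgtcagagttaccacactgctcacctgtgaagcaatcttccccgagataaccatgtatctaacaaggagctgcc
Cxcl2: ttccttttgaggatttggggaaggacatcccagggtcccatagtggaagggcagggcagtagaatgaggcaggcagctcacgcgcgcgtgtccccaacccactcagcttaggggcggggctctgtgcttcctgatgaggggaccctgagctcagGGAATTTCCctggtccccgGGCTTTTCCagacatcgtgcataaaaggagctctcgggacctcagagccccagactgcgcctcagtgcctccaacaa
Cxcl3: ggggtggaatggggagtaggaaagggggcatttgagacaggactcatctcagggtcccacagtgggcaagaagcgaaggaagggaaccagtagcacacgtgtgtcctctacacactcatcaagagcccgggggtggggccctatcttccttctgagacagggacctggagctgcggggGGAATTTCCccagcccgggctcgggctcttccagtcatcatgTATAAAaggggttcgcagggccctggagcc
The S100a9 window held 1 C/EBP-type match, starting 236 bases before the listed start. Cxcl2 held 2 κB-type matches, at 96 and 77 bases before its start, and Cxcl3 held 1 at 72. S100a8 and Cxcl3 held TATAAA at 30 bases before the start. No motif overlapped another. Of 32851 windows of the same length, 9.56% held the C/EBP-type letters, 4.93% the κB-type letters and 7.59% TATAAA on the gene's strand. A match says only that these letters are present. For S100a8 and Cxcl2 the GENCODE gene starts upstream of the RefSeq start, inside the window shown.

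Transcripts of mature neutrophils set the members apart from monocytes and T cells by large margins. These barcodes were chosen by their own counts, and the genes in part for their fold over all other filtered barcodes. Large margins follow from that choice, so the levels are a description. Retnlg, a resistin-like secreted protein of neutrophils, stood at 2083 CPM in control and 3532 CPM in treated cells, against 0 and 7.84 CPM in monocytes and 0.0390 and 0.108 CPM in T cells. G0s2, an inhibitor of fat breakdown, stood at 3929 CPM in control and 4095 CPM in treated cells, against 7.66 and 9.33 CPM in monocytes. Hdc, the enzyme that makes histamine, stood at 1767 CPM in control and 1540.4 CPM in treated cells, against 15.3 and 10.8 CPM in monocytes. The protease inhibitor Slpi stood at 3270.1 CPM in control and 3519 CPM in treated cells but was also present in monocytes, at 293 and 312 CPM. Stfa2l1, a stefin whose close copies can share reads, stood at 1108 CPM in control and 539 CPM in treated cells. Other genes among the most enriched were Trem1, an amplifier of myeloid activation, at 607 CPM in control and 939 CPM in treated cells, Acod1, which makes itaconate, at 1819.7 CPM in control and 1991 CPM in treated cells, Slc7a11, the cystine importer, at 1609 CPM in control and 1428 CPM in treated cells, and Hcar2, a receptor for hydroxybutyrate, at 1002 CPM in control and 1666 CPM in treated cells. Cxcl2 and Il1b were shared with monocytes, at 4867 and 4811 CPM and 4211 and 3879.6 CPM. After each cell was thinned to 500 UMIs, Retnlg was found in 36.8% of control and 46.2% of treated neutrophils and in no T cell, and G0s2 in 68.4% and 59.6%, also in no T cell. The unthinned counts were 10 and 32 cells with Retnlg and 17 and 39 with G0s2.

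**Figure D2:**
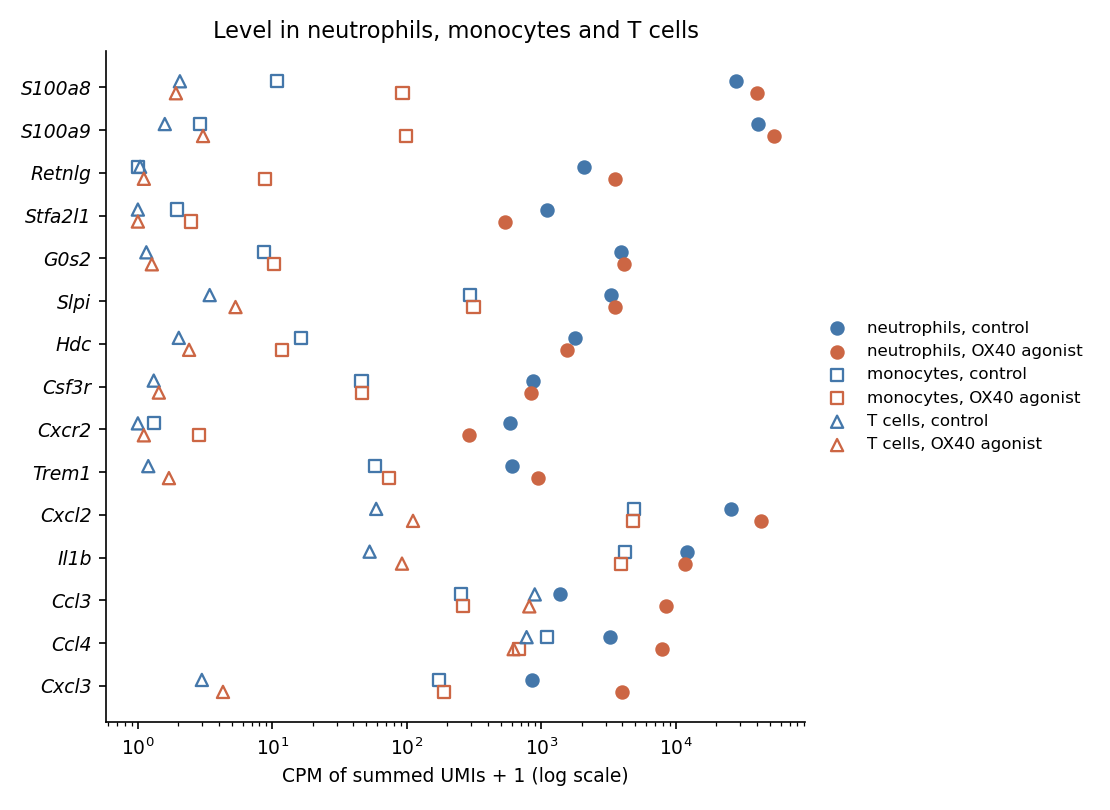
Level of 15 genes in CPM of summed UMIs plus 1, on a log axis, in neutrophils (filled circles), monocytes (open squares) and T cells (open triangles) of each library. Retnlg lies above 2000 CPM in both neutrophil groups and under 10 CPM in monocytes, whereas Ccl3 of T cells lies between the levels of monocytes and neutrophils.

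Transcripts of the early granules were nearly absent. Of the 7 measured azurophil and precursor genes none reached 20 UMIs, with 3 control and 6 treated UMIs in all, and Mpo and Elane were at 0 in both libraries. Most UMIs of the specific granule genes were in 1 cell. Camp, the cathelicidin, had 0 control and 278 treated UMIs, Ngp 0 and 228, and Ltf, lactoferrin, 0 and 70, of which the deepest treated member held 277, 227 and 67. Lcn2, an iron-scavenging lipocalin, was more widely present, in 10 control and 23 treated cells, at 554 CPM in control and 2229 CPM in treated cells with all members and at 730.4 and 696 CPM without the deepest of each library. The median log2 ratio of the 7 compared specific granule genes was 3.81, or 3.04 with genes at 0 set to the bound that 3 UMIs allow, and 0.02 over 4 genes without the deepest members, where the 1 call left was Chil3, a chitinase-like protein (log2 ratio 3.13). Of the 52 treated Chil3 UMIs, 23 were in the deepest member and 28 in the member with 8 Ccr2 UMIs. Chil3 is named outside the gene rule. Of the 16 listed gelatinase granule and maturity genes, 11 were compared, with 7 above and 4 below 0 and a median log2 ratio of 0.10. The 1 called higher was Wfdc21, a small secreted protein with 29 of its 60 treated UMIs in the deepest member. Without the deepest members 3 lay above and 8 below 0 with a median of -0.17, and the calls were 2 lower, Stfa2l1 and, outside the gene rule, Lrg1. Mmp9, gelatinase B, stood at 316 CPM in control and 513 CPM in treated cells, and Mxd1, a repressor that opposes Myc, at 1371 CPM in control and 1227 CPM in treated cells.

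The treated against the control neutrophils were compared over 760 genes with at least 20 UMIs in both libraries together, as log2 ratios after adding 50 CPM to both, and a gene was called at a log2 ratio of 1 or more in size. With no test this is a statement of size in these libraries. In all, 52 genes were called higher in the treated library (6.84%) and 69 lower (9.08%), and the median over all 760 was -0.12. Over all 760, 323 lay above and 437 below 0, the split beside which those of the lists below stand. Without the deepest member of each library, 658 genes could be compared, 40 were higher (6.08%) and 21 lower (3.19%), with a median of -0.00015. Of these 658, 328 lay above and 330 below 0. Of the 43 higher calls that could be compared both ways 32 were called both times, and of the 46 lower calls 10. Leaving out the deepest control member alone left 27 lower calls among 688 compared genes. A stricter size rule asked for Poisson intervals that do not overlap, UMIs in at least 5 cells of the higher library, at most 25% of its UMIs from 1 cell, and a level of at least 0.5 times that of all filtered barcodes. It kept 13 genes higher in the treated library and 0 higher in the control library.

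Ccl3, Ccl4 and Cxcl3 were higher in the treated library. Ccl3 (chr11:83647844-83649355, minus strand), which attracts monocytes and T cells, stood at 1371 CPM (1024 to 1798) in control and 8378 CPM (7755 to 9038) in treated cells, a ratio of 6.11 (4.60 to 8.27), with a UMI in 9 of 19 and 36 of 52 cells. Its neighbour Ccl4 (chr11:83662584-83664683, plus strand), a related CC chemokine, stood at 3244 CPM (2696 to 3870.3) in control and 7852 CPM (7249 to 8492) in treated cells, a log2 ratio of 1.26 and of 0.97 without the deepest members. Ccl4 was held by few cells, 9 and 20, and 1 treated cell held 224 of its 627 UMIs. Cxcl3, another ligand of Cxcr2, stood at 844 CPM (577 to 1191) in control and 3969.9 CPM (3545 to 4432) in treated cells, a log2 ratio of 2.17, with 135 of 317 treated UMIs in 1 cell. T cells held Ccl3 at 892 and 812 CPM and monocytes at 252 and 262 CPM in the control and treated libraries. The receptor condition moves these ratios. Among the barcodes that failed it alone, Ccl3 stood at 19531 CPM in 8 control and 13479 CPM in 39 treated barcodes and Ccl4 at 25129 and 21587 CPM. With those barcodes included the log2 ratio of Ccl3 was 0.66 and that of Ccl4 0.53, under the call.

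Cxcl2 and Il1b were not called. Cxcl2 had a log2 ratio of 0.74, 0.44 without the deepest members, and Il1b of -0.04 and -0.29. The intervals of Il1b overlapped, at 11023 to 13264 CPM in the control and 10995 to 12510.4 CPM in the treated library. Ptgs2, the inducible cyclooxygenase of prostaglandin synthesis, stood at 712 CPM in control and 1691 CPM in treated cells, a log2 ratio of 1.19 and of 0.91 without the deepest members. Ccl6, a myeloid CC chemokine, stood at 1819.7 CPM in control and 2905 CPM in treated cells. Of the 22 listed cytokine and chemokine genes 14 were compared, 11 above and 3 below 0, 5 called higher and 1 lower, with a median of 0.70. Without the deepest members the counts were 11 and 2 of 13, 3 called higher and none lower, with a median of 0.67. Besides Ccl3, Ccl4, Cxcl3 and Ptgs2 the calls held the macrophage growth factor Csf1 (log2 ratio 1.22, or 1.02 without the deepest members), named outside the gene rule. The gene called lower was Cxcl10, an interferon-induced ligand of Cxcr3, with 31 control UMIs, 25 of them in the deepest control member, and 2 treated UMIs.

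Hilpda, Egln3, Egr1 and Fos were also higher in the treated library. Hilpda (chr6:29272488-29275446, plus strand), a hypoxia-induced lipid droplet protein, stood at 475 CPM (281 to 750.2) in control and 2242 CPM (1925 to 2595) in treated cells, a ratio of 4.72 (2.90 to 8.15), in 5 control and 22 treated cells. Egln3, an oxygen sensor itself induced by hypoxia, stood at 79.1 CPM in control and 376 CPM in treated cells, from 3 and 30 UMIs. Egr1, an immediate early transcription factor, stood at 607 CPM (385 to 910.1) in control and 1941 CPM (1648 to 2272) in treated cells, a ratio of 3.20 (2.06 to 5.20), in 7 and 39 cells. Fos, a subunit of AP-1, stood at 791 CPM (534 to 1129) in control and 2054 CPM (1752 to 2393) in treated cells, in 9 and 35 cells. Thinned to 500 UMIs, Egr1 was found in 10.5% of control and 46.2% of treated neutrophils, against 2.83% and 2.89% of T cells and 2.91% and 2.43% of monocytes. Fos reached 21.1% and 46.2% of neutrophils and stood in monocytes at 1404 and 1405 CPM.

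The other 5 of the 10 highest log2 ratios under the size rule rested on few UMIs. The pathogen sensor Tlr2 had 2 control UMIs in 1 cell and 25 treated UMIs in 17 cells. Dusp16, a phosphatase of stress kinases, had 1 and 20. The histone demethylase Kdm6b had 6 and 41, Suco 4 and 32, and the survival gene Bcl2a1b 9 and 64. Bcl2a1b has near-identical copies, between which reads cannot be split with certainty. These 5 genes stayed at a log2 ratio above 1 without the deepest members, at 1.68, 1.91, 1.21, 1.63 and 1.32. Of the 10 genes, only Hilpda kept a log2 ratio above 1 under every alternative run, with a lowest value of 1.12. The others fell under 1 in at least 1 of the alternatives that changed the receptor, S100 or Csf1r condition. The 8 control and 39 treated barcodes that failed the receptor condition alone held Hilpda at 3483 and 3994 CPM. The members held it at 475 and 2242 CPM.

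**Figure D3:**
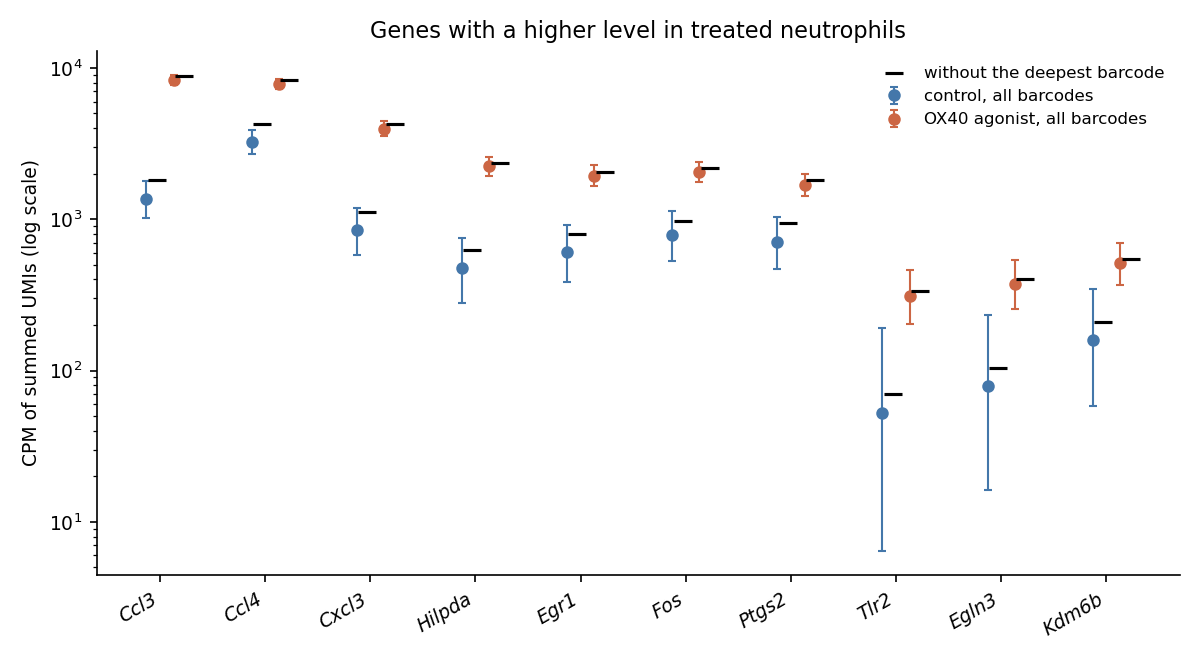
CPM of summed UMIs on a log axis for 10 genes in control and treated neutrophils, with exact Poisson 95% intervals as bars; black dashes give the level without the deepest barcode. For each of the 10 genes the intervals, which cover counting error only, do not overlap between the libraries. The genes were drawn because they were higher. The size rule, which named part of them, itself asks for intervals that do not overlap.

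Interferon-gamma response and class I presentation genes were lower in the treated library, in part through the deepest control member. Of 5 compared interferon-gamma response genes all 5 were called lower with a median of -1.83, among them Cxcl9, with 71 control UMIs in that 1 barcode and 0 in the treated library. Without the deepest members only Gbp2, a guanylate-binding GTPase, could still be compared, at 626 and 294 CPM, a log2 ratio of -0.97. Of 8 compared MHC class I presentation genes all 8 lay below 0, 4 called lower, with a median of -0.98, and without the deepest members 5 of 5 lay below 0, 2 called lower, with a median of -0.88. H2-D1, a classical class I heavy chain, had 147 UMIs in 19 of 19 control cells and 130 in 41 of 52 treated cells. Its level was 3877 CPM (3275 to 4556) in control and 1628 CPM (1360.2 to 1933) in treated cells, and 3235 and 1739 CPM without the deepest members, a log2 ratio of -0.88. The invariant light chain B2m stood nearer to equality, at 2031 CPM in control and 1465 CPM in treated cells, and H2-K1 at 1319 CPM in control and 914 CPM in treated cells. The immunoproteasome subunit Psmb8 had 22 and 10 UMIs and the proteasome activator Psme2 22 and 8, of which 1 control cell held 12 and 13. Psmb8 had a log2 ratio of -1.11 without the deepest members, and Psme2 had too few UMIs left. Monocytes held H2-D1 at 2802 and 2635 CPM. Type I interferon response genes were not called in either direction: of 10 compared, 3 lay above and 7 below 0 with a median of -0.16, and Isg15 stood at 1819.7 CPM in control and 1215 CPM in treated cells with 39 of 69 control UMIs in 1 cell. The inducible transmembrane gene Ifitm1 stood at 2689.9 CPM in control and 2367 CPM in treated cells.

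Of the listed receptors only Tlr2 was called with all members. The growth factor receptor Csf3r, used by the rule, stood at 870.3 CPM in control and 839 CPM in treated cells. Cxcr2, also used by the rule, stood at 580.2 CPM (364 to 878) in control and 288 CPM (183 to 432) in treated cells, from 22 and 23 UMIs. Both levels are shaped by the rule, as 3 of 19 control and 30 of 52 treated members held exactly 1 UMI of the pair. Of the 6 other compared chemoattractant receptors 5 lay above and 1 below 0, with a median of 0.50, and 4 of 5 lay above 0 with a median of 0.24 without the deepest members, none called either way. Ccr1, a receptor of Ccl3, stood at 818 CPM in control and 1403 CPM in treated cells, the atypical receptor Ccrl2 at 2242 CPM in control and 2768 CPM in treated cells, and Cxcr4, which retains neutrophils in the marrow, at 501 CPM in control and 664 CPM in treated cells. Of 11 pattern recognition and Fc receptor genes 10 lay above 0 and 1 below, with a median of 0.50, and without the deepest members 9 and 2 with a median of 0.21, Tlr2 being the 1 called. The lectin Clec4e, which senses dead cells and mycobacterial lipid, stood at 1319 CPM in control and 1628 CPM in treated cells, and its partner Clec4d at 897 CPM in control and 1289.9 CPM in treated cells. Of 7 adhesion genes 3 lay above and 4 below 0, with a median of -0.25.

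Genes of the NADPH oxidase, which makes superoxide, were not called. Of 7 compared subunit genes 3 lay above and 4 below 0, with a median of -0.01. Cyba, the small membrane subunit, stood at 1160.4 CPM in control and 1039 CPM in treated cells, and Ncf1, the cytosolic organizer, at 527 CPM in control and 313 CPM in treated cells. Of 7 compared genes linked to suppressive myeloid cells 4 lay above and 3 below 0, with a median of 0.12, and Ptgs2 was the 1 called higher. Without the deepest members the median was -0.12 and none was called. Cd274, which encodes the checkpoint ligand PD-L1, stood at 448 CPM in control and 338 CPM in treated cells, from 17 and 27 UMIs. A list of 20 tumour-associated neutrophil genes, which shares Ccl3, Ccl4, Cxcl3 and Hilpda with the groups above, had 11 of 16 compared genes above 0, 4 called higher and none lower, with a median of 0.54, or 0.49 without the deepest members. Spp1, osteopontin, is one of its members and stood at 1081 CPM in control and 2079 CPM in treated cells, but 37 of 41 control and 119 of 166 treated UMIs were in 1 cell each.

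Of 8 compared survival genes 6 lay above and 2 below 0, with a median of 0.23, or 0.07 without the deepest members. Bcl2a1b and Bax, a promoter of apoptosis at 79.1 CPM in control and 238 CPM in treated cells, were called both times. The Bax levels rested on few UMIs, and its log2 ratio was 0.39 in the lowest of the alternatives. Mcl1, on which neutrophil survival depends, stood at 3850.3 CPM in control and 3494 CPM in treated cells. Of 16 transcription factor genes 6 lay above and 10 below 0, with a median of -0.06, and Egr1 and Fos were the 2 called. Of 15 immediate early and heat shock genes 9 lay above and 6 below 0, 4 called higher and 2 lower, with a median of 0.21. The chaperones Hspa1b, with 1 and 22 UMIs, and Hsp90aa1 were higher, and Hspa8 and Hsp90ab1 lower, the last 2 not called without the deepest members. Of these Hsp90aa1, Hspa8 and Hsp90ab1 are named outside the gene rule. Of 17 glycolysis and hypoxia genes 10 lay above and 7 below 0, with a median of 0.16, and without the deepest members 12 of 16 lay above 0 with a median of 0.43. In that list Hilpda and Egln3 were called higher and the enolase Eno1 lower (-1.16, not called without the deepest members, named outside the gene rule), whereas the glycolytic enzymes Gapdh, at 2083 CPM in control and 1828 CPM in treated cells, and Pkm, at 1002 CPM in control and 989 CPM in treated cells, were not called. NF-κB feedback genes had a median of -0.14 over 7, with the inhibitor Nfkbia at 6171 CPM in control and 5610.4 CPM in treated cells. Iron and antioxidant genes had a median of 0.06 over 11. Of 16 cytoskeleton genes 2 lay above and 14 below 0, with a median of -0.28. The deepest control member held 544 of the 1790 control UMIs of this list. Without the deepest members 7 of 15 genes lay above and 8 below 0, with a median of -0.25. Among them Tmsb10, a thymosin that binds actin, had a log2 ratio of -1.54 with all members and of 0.13 without the deepest, since 67 of its 88 control UMIs were in the deepest control member.

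**Figure D4:**
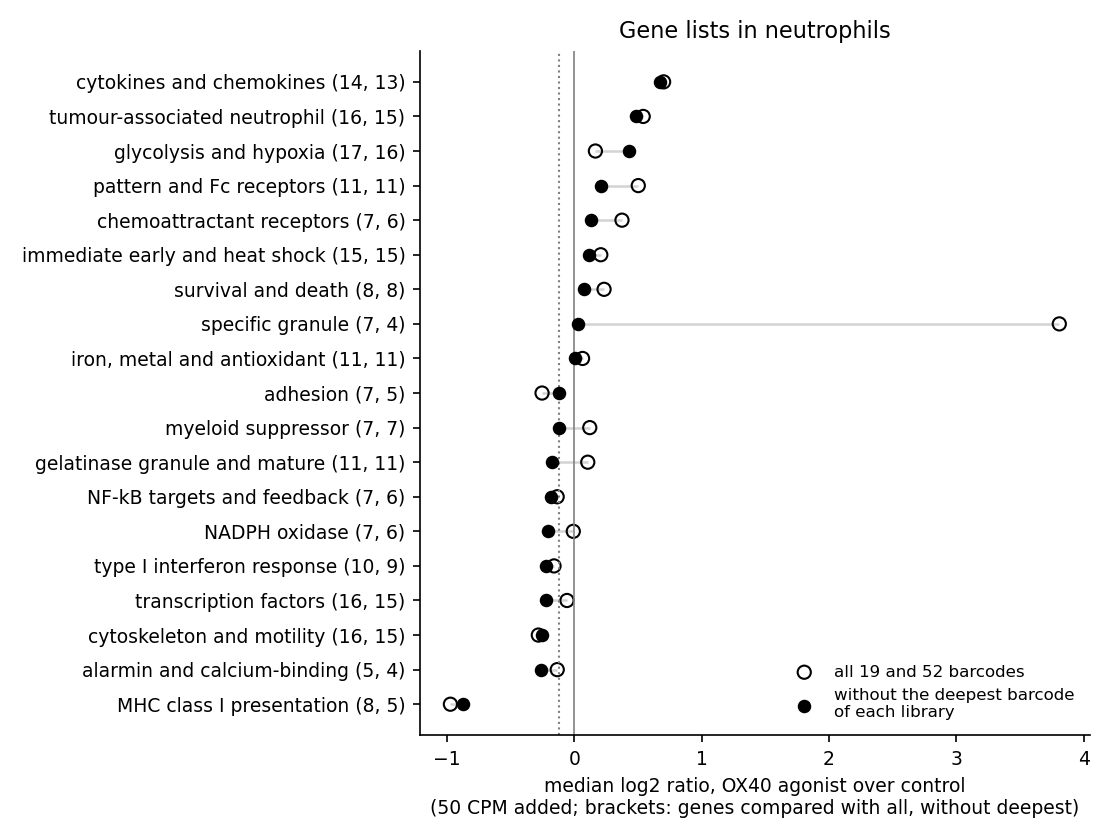
Median log2 ratio of treated over control for 19 gene lists, with all members (open circles) and without the deepest barcode of each library (filled circles); brackets give the number of genes compared, and vertical lines the median of all compared genes, dotted with and solid without the deepest barcodes. The specific granule list moves from 3.81 to 0.02, whereas cytokines and chemokines lie at 0.70 and 0.67. The alarmin and calcium-binding list and the chemoattractant receptor list as drawn still hold genes used by the membership rule. Without those genes the receptor medians are 0.50 with all members and 0.24 without the deepest.

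Cells of 1 library differed widely in these genes. With each cell thinned to 500 UMIs, Cxcl2 ran from 0 to 50 UMIs in control cells with a median of 12, and from 0 to 77 in treated cells with a median of 16.5. The sum of Ccl3 and Ccl4 had a median of 1 in both libraries, and its upper quartile was 1 in control and 7.75 in treated cells, with highest cells at 17 and 65. The medians were equal, the upper quartiles differed and the libraries overlapped. Cxcl3 was found in 5 of 19 control and 12 of 52 treated cells, with highest cells at 4 and 21 UMIs, shares of 26.3% and 23.1%. Hilpda was found in 2 control cells (10.5%, exact 95% interval 1.30 to 33.1) and 16 treated cells (30.8%, 18.7 to 45.1). Retnlg was found in 7 (36.8%) and 24 (46.2%), with highest cells at 8 and 18 UMIs.

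**Figure D5:**
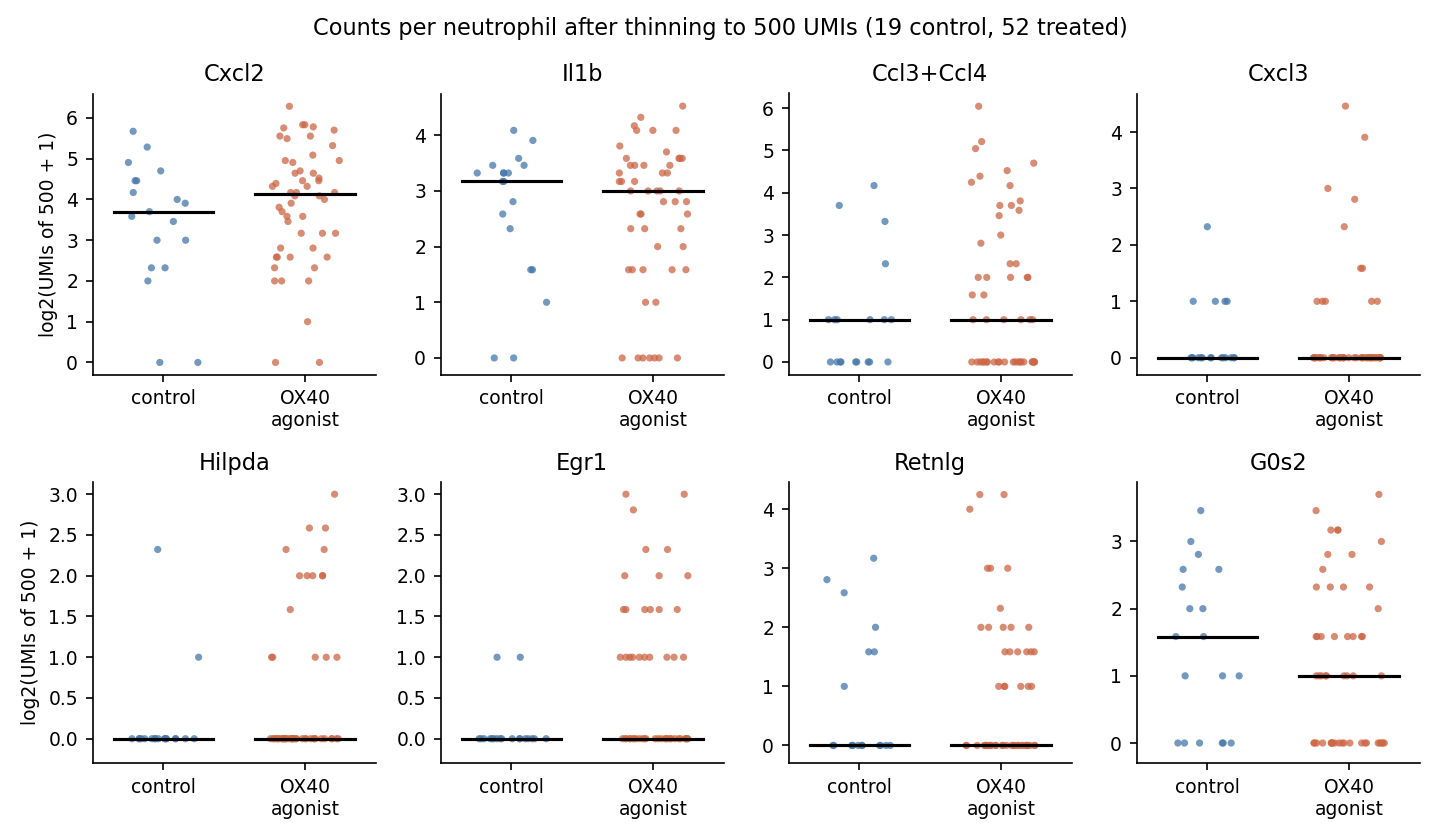
Each point is 1 neutrophil thinned to 500 UMIs, shown as log2 of its UMIs plus 1 for 8 genes or gene sums, with control and treated cells side by side and black lines at the medians. Cxcl2 and Il1b are spread over most cells of both libraries, whereas Cxcl3, Hilpda and Egr1 are 0 in most cells of both. These 3 genes have a UMI in 5, 2 and 2 of 19 control cells and in 12, 16 and 24 of 52 treated cells.

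Cells with Hilpda were mostly not the cells with Retnlg in the treated library. Every cell with Hilpda after thinning also had Ccl3 or Ccl4, 2 of 2 in the control and 16 of 16 in the treated library, whereas only 2 of the 16 treated Hilpda cells had Retnlg, which 22 of the other 36 had. Over the 69 members left without the deepest of each library, the Spearman correlation of Hilpda with Ccl3 and Ccl4 was 0.64 and that of Cxcl2 with Ccl3 and Ccl4 was 0.57. Hilpda went against the gelatinase granule and maturity list, at -0.46. These values are a description over cells of 2 libraries, which share their library and a fixed total of UMIs, so that a gene high in a cell lowers the others. Of the Hilpda correlations, that with Ccl3 and Ccl4 was 0.74 within the 52 treated cells and 0.17 within the 19 control cells, where only 2 cells had a UMI.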

How the data were processed

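The authors deposited filtered count matrices, 1 for each library, holding whole-number UMI counts of 31053 genes. They were made with Cell Ranger 3.1.0, per the file headers, on mm10, per the submitters' processing notes. The members and the gene lists were chosen with earlier results of these data known. UMIs were summed over the members of a library and scaled to CPM with Python 3.11.15, numpy 2.4.6, scipy 1.17.1 and pandas 2.3.3, with exact Poisson intervals for sums and Clopper-Pearson intervals for shares. Log2 ratios used 50 CPM added to both libraries and genes with at least 20 UMIs. Cells were thinned to 500 UMIs to compare shares of cells. The script was tested on simulated Poisson sums. These hold no spread between cells, so the test does not cover sums carried by single barcodes. No doublet caller was run. The Cd3, Csf1r and C1q conditions were each failed alone by 6, 4 and 1 control and 4, 5 and 1 treated barcodes. Whether barcodes that failed these conditions were mixed was not tested. Genes were named by level, by fold over other barcodes, by the size rule, by place in the 33 lists, and for use in the membership rule. Alternatives changed the S100, receptor and Csf1r conditions, the mitochondrial limit, the depth, the pseudocount and the minimum of UMIs per gene. Others left out the deepest members. The Cd3, C1q and melanoma marker conditions and the minimum of genes per barcode were not varied for membership. Melanoma markers were varied only in the denominator of the share.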

Additional observations from a re-analysis of the deposited data

How the results depend on the processing

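No paired analysis was possible because each group is 1 library. Requiring 2 UMIs of Csf3r and Cxcr2 took the share ratio from 2.32 to 1.16. The genes higher went from 52 of 760 compared to 30 of 421, and the genes lower from 69 of 760 to 21 of 421. With at least 50 UMIs, 20 of 336 genes were higher and 29 lower. With no minimum, 311 of 7000 were higher and 600 lower, and after thinning 27 of 273 were higher and 9 lower. Of 927 genes compared with at least 5 S100 UMIs, 121 were lower. Lower genes numbered 21 of 658 without the deepest member of each library and 27 of 688 without the deepest control member. Without the members with 3 or more Ccr2 UMIs, an alternative chosen after seeing the data, they numbered 28 of 645. The totals compared differ, so the counts alone do not show a change in the share called. Among called values, directions turned for the specific granule median (-0.026), Lcn2 (-0.026) and Wfdc21 (-0.75) with 2 receptor UMIs, for Lcn2 (-0.066), Tmsb10 (0.13) and Wfdc21 (-0.11) without both deepest members, for Tmsb10 (0.061) without the deepest control member and for Wfdc21 (-0.52) after thinning. The cause was not tested beyond the barcodes left out. Values under the call turned more often. Counting all values, 14 of 22 list medians and 90 of 209 named genes changed sign in at least 1 alternative, among them S100a8 and S100a9, the gelatinase and maturity median (0.10 to -0.17 without both deepest members) and the glycolysis and hypoxia median (0.16 to -0.38 with at least 5 S100 UMIs). At these depths 1 UMI is 26.4 CPM in the control and 12.5 CPM in the treated library, so small differences in genes of few UMIs were not detectable.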

Other observations

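Barcodes that met every condition except the receptor numbered 8 and 39 (control, then treated, here and below), which is 0.126% and 0.520% of filtered barcodes. Their median depths were 2001 and 1515 UMIs and their median S100 counts 31.5 and 32 UMIs, below those of the members. They held Cxcl2 at 72464 and 69129 CPM, Hilpda at 3483 and 3994 CPM and Spp1 at 2923 and 4503 CPM, and Retnlg at 0 and 598 CPM. In both libraries these levels of Cxcl2, Hilpda and Spp1 were above those of the members, and those of Retnlg below.

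Barcodes that failed on the S100 genes alone were 34 and 67, with medians of 6100 and 4402 UMIs. In 27 and 56 of them S100a8 and S100a9 were both at 0. They held the myeloid lysozyme Lyz2 at 11022 and 7625 CPM and the MHC class II chaperone Cd74 at 6690 and 9196 CPM. The members held Lyz2 at 396 and 2304 CPM and Cd74 at 1371 and 150.3 CPM. Of the 184 Lyz2 UMIs of treated members, 42 were in the deepest and 61 in the member with 8 Ccr2 UMIs. Of the 52 Cd74 UMIs of control members, 40 were in the deepest.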
